A study of Mus musculus with 12 samples.

Results

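The expression of 9 genes of the transforming growth factor beta (TGF-beta) pathway was described in CD8+ T cells sorted from mouse tumours: the ligands Tgfb1 and Tgfb3, the receptors Tgfbr1, Tgfbr2 and Tgfbr3, the signal carrier Smad3, the inhibitory Smad7, and the corepressors Ski and Skil. They were taken by symbol from a table of 56980 genes, and all 9 were found there and passed the filter on low counts, which kept 20411 genes. The mice were wild type and of the C57BL/6J strain in every group. Tumours were grown from Panc02, a mouse pancreatic cancer line, or from Panc02 expressing Flt3L, the FLT3 ligand, a growth factor for dendritic cells. Live CD45.2+ CD8+ cells were sorted by asialo-GM1 (asGM1), a glycolipid found on natural killer cells and some activated T cells. This gave 4 groups of 3 libraries: asGM1+ and asGM1- cells of Flt3L Panc02 tumours, and asGM1+ and asGM1- cells of Panc02 tumours. The labels do not say that libraries of a group came from separate mice or tumours, so p-values measure only the spread between these samples. Nor do they give the age of the mice, the time of sorting or how Flt3L expression was driven.

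TGF-beta is made as a latent dimer and must be released before it can bind. The active ligand binds TGFBR2, which phosphorylates TGFBR1, and TGFBR1 then phosphorylates SMAD2 and SMAD3, which enter the nucleus with SMAD4. SMAD7 is induced by the pathway and blocks the receptor, while SKI and SKIL repress SMAD target genes. In CD8+ T cells the pathway is known for restraining proliferation and killing and for supporting the integrin chain CD103 on tissue-resident cells.

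Library totals were 98663008 to 102896605 deposited counts, and values are given as CPM, counts rescaled to a common library size with TMM factors. Cd8a, a chain of the CD8 receptor, was at 1569 to 2562 CPM in the libraries. Other cells' transcripts were present. The summed level of 15 plasmacytoid dendritic cell genes was 854 to 963 CPM in asGM1+ and 1876 to 1974 CPM in asGM1- libraries of Flt3L Panc02 tumours, and 783 to 894 CPM in asGM1+ and 1123 to 1175 CPM in asGM1- libraries of Panc02 tumours. Siglech, the receptor that defines these cells, had 4.56, 2.33 and 1.60 CPM in asGM1+ and 290, 262 and 253 CPM in asGM1- libraries of Flt3L Panc02 tumours. Most of the asGM1+ sum was 1 gene, Irf8, a transcription factor that other leukocytes also express, at 563.2 ± 55.5 CPM in asGM1+ and 611.7 ± 14.5 CPM in asGM1- cells of these tumours (SD, n = 3 each). The median log2 fold change of the 15 genes between the gates was -5.59 in Flt3L Panc02 and -4.36 in Panc02 tumours. In these bulk samples, fewer cells of a type and less RNA per cell cannot be told apart. The asGM1- replicate 1 library of Flt3L Panc02 tumours stood apart for these genes: it held the lowest of the 12 values for 5 of the 9 (Tgfb1, Tgfbr2, Smad7, Ski and Skil). It also held the lowest value for 20.5% of the 10342 genes whose mean reached 5 CPM, against 19.7% in asGM1- replicate 2 and 16.0% in asGM1+ replicate 3 of the same tumours. The asGM1- replicate 2 library of these tumours held the highest value for 4 of the 9 genes. It held the highest for 15.2% of the 10342 genes, against 23.0% in asGM1+ replicate 3. Values that asGM1- replicate 1 moved are given with and without it, and neither set is preferred.

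Per kilobase of exon, Tgfbr2 was the most abundant of the 9 transcripts, with a median over the 12 libraries of 25.1 CPM per kilobase, followed by Tgfb1 at 14.7 and Ski at 8.39. Skil, Smad7 and Smad3 had medians of 4.35, 3.67 and 2.89 CPM per kilobase. Tgfbr1 followed at 1.35, and Tgfb3 and Tgfbr3 were lowest at 0.867 and 0.821 CPM per kilobase. Exon lengths came from the GRCm38 annotation, an earlier build than the mm39 of the deposited table. Among the receptors, the median of Tgfbr2 stood above those of Tgfbr1 and Tgfbr3.

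**Figure D1:**
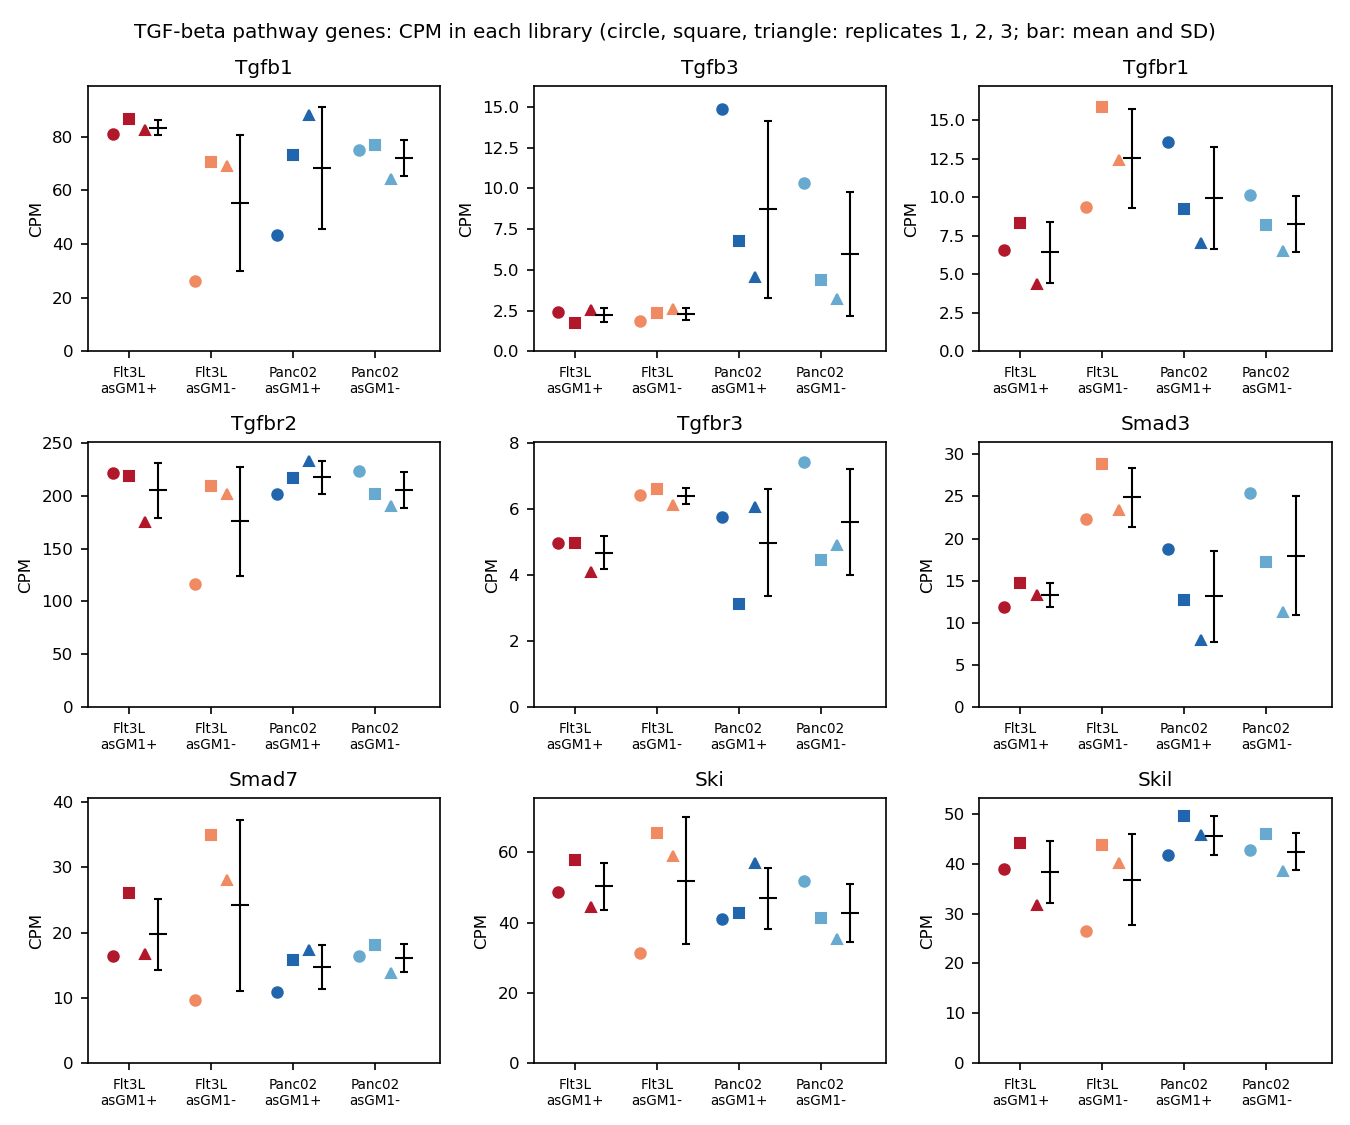
CPM of each of the 9 genes (linear axis from 0) in asGM1+ and asGM1- cells of Flt3L Panc02 tumours and of Panc02 tumours; circles, squares and triangles are replicates 1, 2 and 3, and bars are the mean and SD of 3 libraries. Tgfb3 was at or below 2.63 CPM in all 6 Flt3L Panc02 libraries and at or above 3.24 CPM in all 6 Panc02 libraries, and Smad3 and Tgfbr1 did not overlap between asGM1+ and asGM1- cells of Flt3L Panc02 tumours.

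Of the 9 genes in 4 pairwise comparisons, only Tgfb3 in asGM1+ cells changed between groups by edgeR's quasi-likelihood test at a Benjamini-Hochberg adjusted p under 0.05, lower in Flt3L Panc02 than in Panc02 tumours. Smad3 and Tgfbr1 had the largest fitted differences between asGM1+ and asGM1- cells of Flt3L Panc02 tumours, both lower in asGM1+ cells with no overlap of libraries, but their adjusted p values lay above the threshold. Tgfbr2, Ski and Skil differed by at most 0.28 on the log2 scale in any of the 4 comparisons with all 12 libraries. Single libraries set that limit: without asGM1- replicate 1 of Flt3L Panc02 tumours, Ski was at 0.54 between tumour types in asGM1- cells, and without asGM1- replicate 2, Tgfbr2 was at 0.37 between the gates. None of these 3 passed the test in any of the 4 comparisons.

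**Figure D2:**
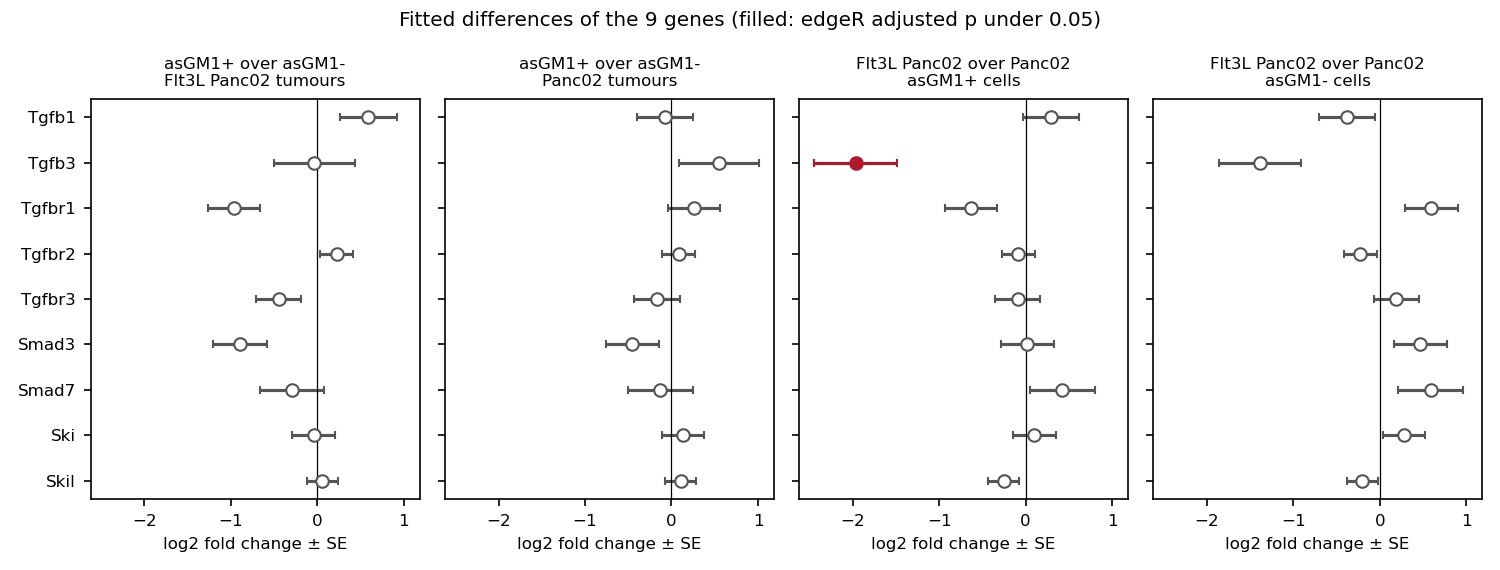
Fitted log2 fold changes (points) with their SE (bars) for the 9 genes in 4 comparisons, asGM1+ over asGM1- cells within each tumour type and Flt3L Panc02 over Panc02 tumours within each gate; filled points passed the adjusted p of 0.05. The filled point is Tgfb3 in asGM1+ cells at -1.97, and the open points farthest below 0 in Flt3L Panc02 tumours are Tgfbr1 at -0.96 and Smad3 at -0.90.

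Smad3 (ENSMUSG00000032402), the transcription factor that carries the receptor's signal to the nucleus, had 11.9, 14.8 and 13.4 CPM in asGM1+ cells of Flt3L Panc02 tumours, against 22.3, 28.9 and 23.4 CPM in asGM1- cells. All 3 asGM1- libraries stood above all 3 asGM1+ libraries. In means, this was 13.4 ± 1.41 CPM in asGM1+ and 24.9 ± 3.52 CPM in asGM1- cells (SD, n = 3 each), with a log2 fold change of -0.90 ± 0.31 (SE), with an edgeR adjusted p of 0.0994 and an unadjusted p of 0.0142. The gene lies on the minus strand of chromosome 9 (GRCm38 63646767 to 63757994).

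Panc02 tumours gave 18.8, 12.7 and 8.01 CPM of Smad3 in asGM1+ cells, against 25.4, 17.2 and 11.3 CPM in asGM1- cells. These groups overlapped, and their means were 13.2 ± 5.39 CPM in asGM1+ and 18.0 ± 7.06 CPM in asGM1- cells (SD, n = 3 each). The log2 fold change was -0.45 ± 0.31 (SE, edgeR adjusted p = 0.723). Libraries with the same replicate number deviated together in these tumours, and within each number asGM1+ cells held less Smad3, by log2 ratios of -0.44, -0.44 and -0.50. Among all genes tested, 17.4% were lower in asGM1+ cells in all 3 numbers. With the number as a block, the log2 fold change was -0.46 ± 0.11 and the edgeR adjusted p 0.104.

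Averaged over both tumour types, Smad3 was at a log2 fold change of -0.67 ± 0.22 between asGM1+ and asGM1- cells (edgeR adjusted p = 0.101), with a lower mean in asGM1+ cells of both. With the replicate number as a block in both tumour types, edgeR called Smad3 for this average, among 7.85% of all genes. The difference between the gate effects was -0.45 ± 0.44 (edgeR adjusted p = 0.664), so no difference between tumour types in this effect was detected. The Flt3L Panc02 call depended on the method: DESeq2 gave Smad3 an adjusted p of 0.0365 and limma-voom with quality weights 0.0475. Within the Flt3L Panc02 replicate numbers, the log2 ratios of Smad3 were -0.90, -0.97 and -0.81. A fit by edgeR with the number as a block called Smad3 there, among 10.3% of genes. Whether these numbers pair samples was not settled. Its fitted change there lay between -0.97 and -0.78 when any 1 of the 6 libraries was left out, with edgeR adjusted p from 0.110 to 0.256. Between tumour types, Smad3 was at 0.02 ± 0.31 in asGM1+ cells and 0.47 ± 0.31 in asGM1- cells, neither of them called. The asGM1- cells of Flt3L Panc02 tumours thus had the highest mean of the 4 groups, the asGM1- cells of Panc02 tumours the next, and the neighbouring asGM1+ means of 13.4 and 13.2 CPM lay within their spread.

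**Figure D3:**
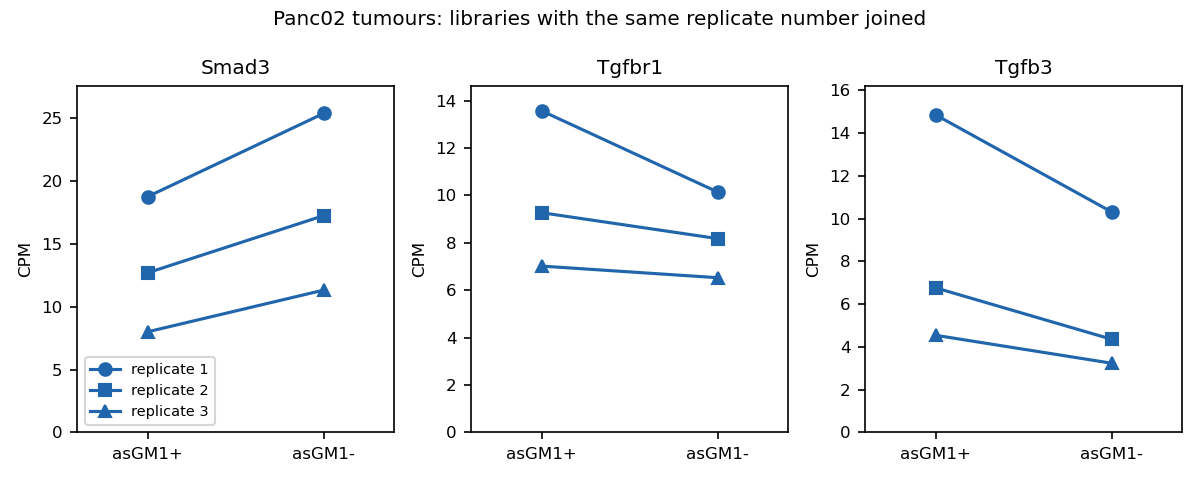
CPM (linear axis from 0) of Smad3, Tgfbr1 and Tgfb3 in asGM1+ and asGM1- cells of Panc02 tumours, with libraries of the same replicate number joined by a line. Smad3 lay lower in asGM1+ cells in all 3 numbers, Tgfbr1 and Tgfb3 lay higher in all 3, and the spread between numbers was wider than the step within a number.

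Tgfbr1 (ENSMUSG00000007613), the kinase subunit that phosphorylates SMAD2 and SMAD3, had 6.57, 8.33 and 4.38 CPM in asGM1+ cells of Flt3L Panc02 tumours, against 9.39, 15.8 and 12.4 CPM in asGM1- cells. The highest asGM1+ library lay below the lowest asGM1- library. Mean levels were 6.43 ± 1.98 CPM in asGM1+ and 12.5 ± 3.22 CPM in asGM1- cells (SD, n = 3 each), and the log2 fold change was -0.96 ± 0.30 (SE, edgeR adjusted p = 0.0738, unadjusted 0.0083). DESeq2 gave 0.0188 and limma-voom with quality weights 0.0347, and a filter that kept only genes at 5 CPM or more in 3 libraries gave an edgeR adjusted p of 0.0458, where 12.8% of genes were called. With the replicate number as a block, edgeR also called Tgfbr1 in these tumours, among 10.3% of genes. Leaving out any 1 of the 6 libraries moved the change between -1.19 and -0.75, with edgeR adjusted p from 0.0519 to 0.237. The gene lies on the plus strand of chromosome 4 (GRCm38 47353222 to 47414931).

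In Panc02 tumours the direction was the other way, with 13.6, 9.27 and 7.02 CPM of Tgfbr1 in asGM1+ cells, against 10.1, 8.18 and 6.53 CPM in asGM1- cells. The groups overlapped, although asGM1+ cells stood higher within each of the 3 replicate numbers (log2 ratios 0.42, 0.18 and 0.10). Among all genes tested, 19.8% were higher in all 3 numbers. The fitted log2 fold change was 0.26 ± 0.30 (edgeR adjusted p = 0.890). With the replicate number as a block, edgeR did not call Tgfbr1 in Panc02 tumours either. The difference between the gate effects in Flt3L Panc02 and Panc02 tumours was -1.23 ± 0.43 (SE, unadjusted p 0.0143), with an edgeR adjusted p of 0.220, so it was not called. Between tumour types, Tgfbr1 was at -0.63 ± 0.30 in asGM1+ cells (edgeR adjusted p = 0.225) and 0.60 ± 0.30 in asGM1- cells (0.298), where limma-voom gave 0.70 with an adjusted p of 0.0449. Means ran from 12.5 CPM in asGM1- cells of Flt3L Panc02 tumours through 9.95 and 8.28 CPM in asGM1+ and asGM1- cells of Panc02 tumours to 6.43 CPM in asGM1+ cells of Flt3L Panc02 tumours. Of neighbours in this order, none differed by more than the larger of their SDs. Some transcripts of other cells moved with Smad3 and Tgfbr1 between the gates of Flt3L Panc02 tumours, and others moved the opposite way. Of the 15 plasmacytoid dendritic cell genes summed above, 11 were called lower in asGM1+ cells, as were 7 of 12 conventional dendritic cell genes, whose sum was 40.6 to 54.2 CPM in asGM1+ and 144 to 161 CPM in asGM1- libraries. Summed macrophage and monocyte genes went the opposite way, at 713 to 975 CPM in asGM1+ and 395 to 636 CPM in asGM1- libraries. Fibroblast sums did as well, at 214 to 302 against 141 to 202 CPM. Of the 16 macrophage and monocyte genes 1 was called higher and 1 lower, and of the 12 fibroblast genes 0 were called. In Panc02 tumours, 9 of the 15 plasmacytoid dendritic cell genes were called lower in asGM1+ cells. The part of other cells in the Smad3 and Tgfbr1 values was not tested.

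The 250 bases before the transcription start of Smad3 and of the first start of Tgfbr1 are shown because these 2 genes had the lowest fitted log2 fold changes in asGM1+ cells of Flt3L Panc02 tumours. Both are RefSeq promoters of build GRCm38.p6, read 5′ to 3′ on the gene's strand, and capitals mark matches to the GC box GGGCGG or its reverse CCGCCC.
Smad3, chr9:63757995-63758244, minus strand: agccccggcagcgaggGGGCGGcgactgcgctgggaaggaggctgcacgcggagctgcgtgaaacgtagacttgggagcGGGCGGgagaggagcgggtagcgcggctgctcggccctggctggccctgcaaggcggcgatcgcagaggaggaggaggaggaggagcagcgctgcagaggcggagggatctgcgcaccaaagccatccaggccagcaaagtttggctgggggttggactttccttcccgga
Tgfbr1, chr4:47352972-47353221, plus strand: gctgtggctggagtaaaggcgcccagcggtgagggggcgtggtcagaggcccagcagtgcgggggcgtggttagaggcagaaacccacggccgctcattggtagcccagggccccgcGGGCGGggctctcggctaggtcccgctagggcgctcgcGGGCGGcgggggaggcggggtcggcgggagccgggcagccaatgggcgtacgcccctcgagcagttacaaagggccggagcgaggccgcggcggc
Each held 2 matches to the GC box and none to CAGAC or its reverse GTCTG, a motif of SMAD-binding elements. Neither held the full element GTCTAGAC. Shorter forms of the motif were not counted. Over the same 250 bases of 32851 promoters, 32.7% held the GC box, 42.2% CAGAC or its reverse and 0.167% the full element. Their GC content was 69.2% for Smad3 and 74.8% for Tgfbr1, against a median of 52.4% over all promoters. A match is a description of the letters only. RefSeq promoters were matched for 5 of the 9 genes.

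Tgfb3 (ENSMUSG00000021253), a TGF-beta ligand known from mesenchymal and epithelial tissues, had 2.42, 1.75 and 2.53 CPM in asGM1+ cells of Flt3L Panc02 tumours, against 14.9, 6.76 and 4.54 CPM in asGM1+ cells of Panc02 tumours. Every Flt3L Panc02 library lay below every Panc02 library. Means were 2.23 ± 0.423 CPM in Flt3L Panc02 and 8.72 ± 5.43 CPM in Panc02 tumours (SD, n = 3 each), with a log2 fold change of -1.97 ± 0.48 (SE, edgeR adjusted p = 0.0376). It was the 1 call among the 9 genes in this comparison, by edgeR, DESeq2 and limma-voom alike, which called 6.25%, 14.9% and 15.3% of all genes there. The gene lies on the minus strand of chromosome 12 (GRCm38 86056745 to 86079041).

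The Tgfb3 call rested on few libraries. The highest Panc02 library, asGM1+ replicate 1, set much of the size: without it the log2 fold change was -1.34 and the edgeR adjusted p 0.142. The call was also lost without asGM1+ replicate 2 of Panc02 tumours (0.0762) and without replicate 1 (0.0658), 2 (0.128) or 3 (0.111) of the Flt3L Panc02 asGM1+ libraries. A fit to the 6 asGM1+ libraries alone gave 0.0668 and no filter on low counts gave 0.0652. Without both Panc02 libraries numbered 1, a choice made after the values were seen, the change was -1.34 with an edgeR adjusted p of 0.0428, and 1.92% of all genes were called.

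In asGM1- cells, Tgfb3 had 1.87, 2.36 and 2.63 CPM in Flt3L Panc02 tumours, against 10.3, 4.36 and 3.24 CPM in Panc02 tumours. Here too the groups did not overlap. The log2 fold change was -1.39 ± 0.47 (SE, edgeR adjusted p = 0.126), while DESeq2 gave an adjusted p of 0.0327. Between gates, Tgfb3 was at -0.03 ± 0.47 in Flt3L Panc02 tumours and 0.55 ± 0.46 in Panc02 tumours (edgeR adjusted p = 0.978 and 0.814), higher in asGM1+ cells within each of the 3 Panc02 numbers by log2 ratios of 0.53, 0.63 and 0.49. With the number as a block, this was 0.55 ± 0.19 (edgeR adjusted p = 0.274). Both Flt3L Panc02 means, 2.23 and 2.28 CPM, lay within each other's SD, as did the Panc02 means of 8.72 CPM in asGM1+ and 5.97 CPM in asGM1- cells.

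Some transcripts of other cells moved with Tgfb3. Krt8, a keratin of epithelial cells, had 8.80, 7.39 and 6.80 CPM in asGM1+ cells of Flt3L Panc02 tumours, against 70.9, 40.9 and 20.5 CPM in asGM1+ cells of Panc02 tumours. Its libraries did not overlap between tumour types in either gate, with log2 fold changes of -2.53 ± 0.37 in asGM1+ cells (edgeR adjusted p = 0.00579) and -1.92 ± 0.36 in asGM1- cells (0.0175). Of the 9 tested genes of the epithelial list, 1 was higher and 2 were lower in each gate, with median log2 fold changes of -0.26 in asGM1+ and 0.16 in asGM1- cells. Its sum was 272 to 298 CPM in Flt3L Panc02 and 287 to 318 CPM in Panc02 asGM1+ libraries, which overlap. The list includes Flt3l, the gene of the ligand that Flt3L Panc02 cells express and not an epithelial marker. Flt3l averaged 81.1 CPM in Flt3L Panc02 and 65.3 CPM in Panc02 asGM1+ libraries, so the sum does not measure epithelial transcripts alone. Summed macrophage and monocyte genes (16) lay at 713 to 975 CPM in asGM1+ cells of Flt3L Panc02 tumours, against 918 to 3350 CPM in asGM1+ cells of Panc02 tumours, and 4 of the 16 were called lower. Summed fibroblast genes (12) lay at 214 to 302 CPM in Flt3L Panc02 against 241 to 539 CPM in Panc02 asGM1+ libraries, with 4 of the 12 called lower and Col1a1 above 0 in all 12 libraries. The highest value of Tgfb3, of Krt8 and of both sums fell in the same library, Panc02 asGM1+ replicate 1. Their part in the result was not tested.

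**Figure D4:**
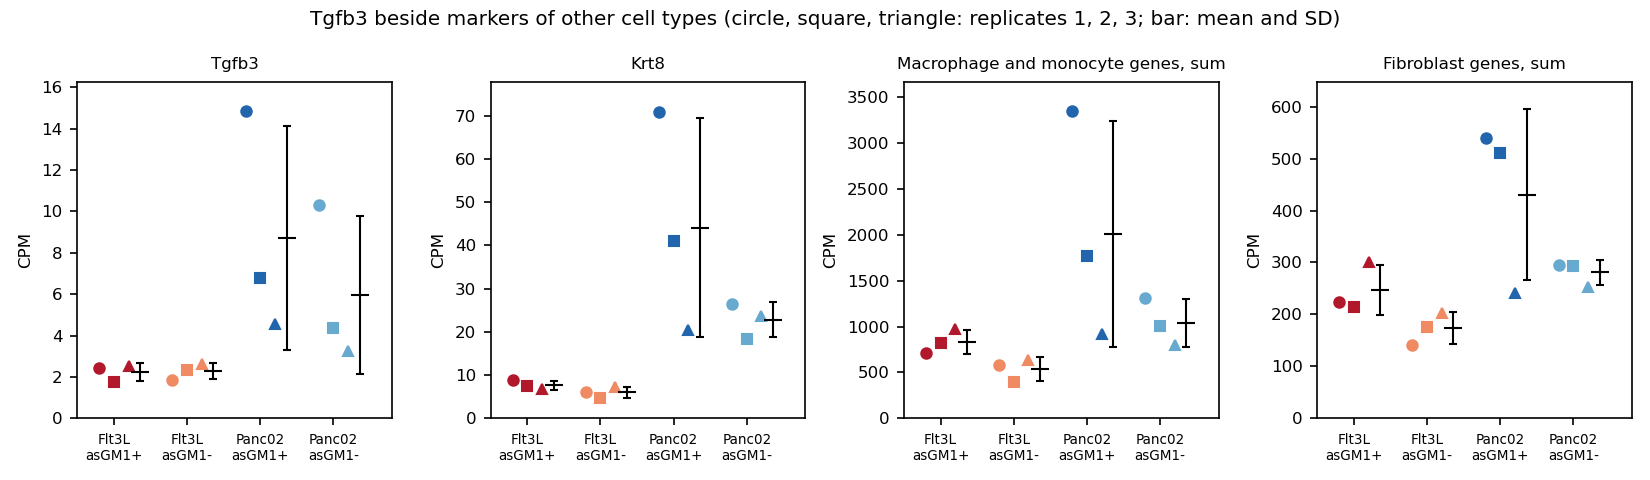
CPM (linear axes from 0) of Tgfb3, of Krt8 and of the summed macrophage and monocyte genes and fibroblast genes in the 4 groups; circles, squares and triangles are replicates 1, 2 and 3, and bars are the mean and SD of 3 libraries. All 4 measures peak in Panc02 asGM1+ replicate 1, where Tgfb3 reached 14.9 CPM and Krt8 70.9 CPM.

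The patterns over the 12 libraries most like that of Tgfb3, among 9433 genes of at least 5 CPM, were those of Mmp14, Sdc1 and Laptm4b. Likeness was the root mean square difference of log2 CPM after centring each gene, and it was 0.202 for Mmp14, 0.238 for Sdc1 and 0.248 for Laptm4b, against 0.937 for Tgfb3 about its own mean. Mmp14, a membrane-anchored matrix metalloproteinase, had 13.1, 11.6 and 16.4 CPM in asGM1+ cells of Flt3L Panc02 tumours, against 89.6, 45.2 and 23.4 CPM in asGM1+ cells of Panc02 tumours. Sdc1, a cell-surface proteoglycan, had 16.9, 11.7 and 14.0 CPM in Flt3L Panc02 against 87.3, 47.2 and 28.7 CPM in Panc02 asGM1+ libraries. All 3 patterns, like that of Tgfb3, peaked in Panc02 asGM1+ replicate 1.

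Tgfb1, the ligand made by most leukocytes, had 81.1, 86.5 and 82.4 CPM in asGM1+ cells of Flt3L Panc02 tumours, against 26.1, 70.7 and 69.1 CPM in asGM1- cells. The asGM1+ libraries lay close together and above all asGM1- libraries, of which replicate 1 was far below the rest. The log2 fold change was 0.59 ± 0.32 (SE, edgeR adjusted p = 0.281), and without that library it was 0.25 ± 0.23 (0.515). In Panc02 tumours, asGM1+ cells had 43.3, 73.1 and 88.0 CPM of Tgfb1, against 74.8, 76.8 and 64.2 CPM in asGM1- cells. These libraries overlapped, at a log2 fold change of -0.08 ± 0.32. Flt3L Panc02 over Panc02 tumours gave 0.29 ± 0.32 in asGM1+ cells and -0.38 ± 0.32 in asGM1- cells, neither called, and the asGM1- value was -0.04 without the low library.

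Tgfbr2, the ligand-binding receptor, had 221.8, 218.5 and 174.8 CPM in asGM1+ cells of Flt3L Panc02 tumours, against 116.2, 209.4 and 201.4 CPM in asGM1- cells. Panc02 tumours gave 201.9, 216.9 and 232.9 CPM in asGM1+ cells, against 223.3, 201.9 and 190.0 CPM in asGM1- cells. Apart from the single low library, the values lay in a narrow band and every pair of groups overlapped. Log2 fold changes between asGM1+ and asGM1- cells were 0.22 ± 0.19 in Flt3L Panc02 and 0.08 ± 0.19 in Panc02 tumours, and without the low library the Flt3L Panc02 value was -0.001 ± 0.12. Flt3L Panc02 over Panc02 tumours gave -0.08 ± 0.19 in asGM1+ and -0.22 ± 0.19 in asGM1- cells, and the asGM1- value was 0.001 ± 0.12 without the low library.

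Tgfbr3, or betaglycan, a co-receptor that presents ligand to TGFBR2, had 4.97, 4.98 and 4.10 CPM in asGM1+ cells of Flt3L Panc02 tumours, against 6.43, 6.61 and 6.13 CPM in asGM1- cells. The groups did not overlap, at a log2 fold change of -0.45 ± 0.26 (SE, edgeR adjusted p = 0.312). In Panc02 tumours it had 5.77, 3.14 and 6.06 CPM in asGM1+ cells, against 7.44, 4.46 and 4.92 CPM in asGM1- cells. Here the libraries overlapped, at -0.17 ± 0.26 (0.939). Between tumour types it differed by 0.19 or less on the log2 scale in either direction, within its SE of 0.26.

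Smad7, the feedback inhibitor of the receptor, had 16.4, 26.0 and 16.8 CPM in asGM1+ cells of Flt3L Panc02 tumours, against 9.65, 34.9 and 28.0 CPM in asGM1- cells. The lowest and the highest of its 12 values were thus both in asGM1- cells of Flt3L Panc02 tumours. The log2 fold change between the gates was -0.29 ± 0.37 (SE, edgeR adjusted p = 0.674), and -0.67 ± 0.24 without asGM1- replicate 1 (0.111). In Panc02 tumours, Smad7 had 10.9, 15.8 and 17.4 CPM in asGM1+ cells, against 16.3, 18.1 and 13.8 CPM in asGM1- cells, at -0.13 ± 0.37. Flt3L Panc02 over Panc02 tumours gave 0.42 ± 0.37 in asGM1+ cells and 0.59 ± 0.38 in asGM1- cells, with edgeR adjusted p of 0.529 and 0.425. Without the low library, the asGM1- value was 0.97 ± 0.24 with an edgeR adjusted p of 0.0509.

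Ski, a corepressor that binds SMAD complexes, had 48.7, 57.7 and 44.6 CPM in asGM1+ cells of Flt3L Panc02 tumours, against 31.4, 65.4 and 58.8 CPM in asGM1- cells. In Panc02 tumours it had 41.2, 42.8 and 56.9 CPM in asGM1+ cells, against 51.7, 41.3 and 35.3 CPM in asGM1- cells. All groups overlapped, and the 4 fitted differences lay between -0.04 and 0.28. Without the low library, Ski in asGM1- cells was at 0.54 ± 0.19 between Flt3L Panc02 and Panc02 tumours (edgeR adjusted p = 0.126), and at -0.30 ± 0.19 between the gates of Flt3L Panc02 tumours (0.330).

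Skil, or SnoN, the related corepressor, had 39.0, 44.1 and 31.8 CPM in asGM1+ cells of Flt3L Panc02 tumours, against 26.4, 43.8 and 40.1 CPM in asGM1- cells. In Panc02 tumours it had 41.7, 49.4 and 45.6 CPM in asGM1+ cells, against 42.6, 45.9 and 38.6 CPM in asGM1- cells. The groups overlapped in each comparison, with fitted differences between -0.25 and 0.11 and an SE of 0.18. Without the low library, Skil was at -0.13 ± 0.14 between the gates of Flt3L Panc02 tumours, against 0.06 with it, and at -0.02 ± 0.14 between tumour types in asGM1- cells. Neither corepressor was called in any comparison.

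Counted over the 9 genes, 0 were called by edgeR between asGM1+ and asGM1- cells of Flt3L Panc02 tumours, where 8.59% of all genes tested were called. At an unadjusted p under 0.05 there were 2 of the 9, Smad3 and Tgfbr1, against 25.4% of all genes, and DESeq2 and limma-voom called the same 2 genes, among 15.8% and 13.7% of the genes they tested. With the replicate number as a block, edgeR called these 2 as well, among 10.3% of genes. In this comparison 4 of the 9 (Tgfb1, Tgfbr1, Tgfbr3 and Smad3) did not overlap between the gates, against 28.7% of all genes. In Panc02 tumours, 0 of the 9 were called between the gates by edgeR, DESeq2 or limma-voom, 0 had an unadjusted p under 0.05 (9.99% of all genes did) and 0 did not overlap. Over all genes tested, edgeR called 0.892%, DESeq2 3.25% and limma-voom 4.07%, and 17.6% did not overlap. For the mean of both tumour types edgeR called 0 of the 9 and 6.19% of all genes, and 1 of the 9, Smad3, had an unadjusted p under 0.05, against 20.2% of all genes. DESeq2 (adjusted p 0.0298) and limma-voom (0.0481) called Smad3 there, among 11.5% and 12.4% of genes, as did edgeR without Panc02 asGM1+ replicate 1 (0.0358). So did edgeR with the replicate number as a block, among 7.85% of genes.

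Between tumour types, edgeR called 0 of the 9 in asGM1- cells, where it called 3.70% of all genes, and 1 had an unadjusted p under 0.05, against 20.3% of all genes. There DESeq2 called 1 of the 9 (Tgfb3) and 11.5% of its genes, and limma-voom 1 (Tgfbr1) and 17.3%. Tgfb3 was the 1 of the 9 without overlap in each gate, against 30.7% of all genes in asGM1+ and 26.6% in asGM1- cells. For the difference between the gate effects, edgeR, DESeq2 and limma-voom called 0 of the 9, 1 (Tgfbr1) had an unadjusted p under 0.05, against 14.8% of all genes, and the 3 tools called 0.367%, 4.40% and 3.85% of all genes in that order. The median log2 fold change of the 9 genes was -0.04 between gates in Flt3L Panc02 tumours and 0.08 in Panc02 tumours, beside -0.01 and 0.02 over all genes. It was -0.08 between tumour types in asGM1+ cells and 0.19 in asGM1- cells, beside -0.03 and 0.002 over all genes. The 4 comparisons share libraries in pairs and are not independent.

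A further 109 genes were listed by role, both components of the pathway and genes that TGF-beta raises or lowers in T cells. Of these, 102 passed the filter. Between asGM1+ and asGM1- cells of Flt3L Panc02 tumours 18 were lower and 3 higher (20.6%), where 5.83% of all genes were called lower and 2.77% higher. Among these calls, 3 lower and 2 higher were of the raised list, and 6 lower and 1 higher of the lowered list. In Panc02 tumours 7 were lower and 0 higher (6.86%), against 0.843% lower and 0.0490% higher among all genes. All 7 were of the raised list (3) or the lowered list (4), and 0 were pathway components. Between tumour types, 8 were higher and 10 lower in asGM1+ cells (17.6%), against 2.05% higher and 4.20% lower among all genes. In asGM1- cells 7 were higher and 5 lower (11.8%), against 1.86% higher and 1.84% lower. No gene of the lists was called by edgeR for the difference between gate effects. The lists were chosen with earlier results of these data known, so a share above that of all genes is not a test of the pathway. The median log2 fold change of the 102 genes was -0.13 and 0.03 for the gates of Flt3L Panc02 and of Panc02 tumours.

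**Figure D5:**
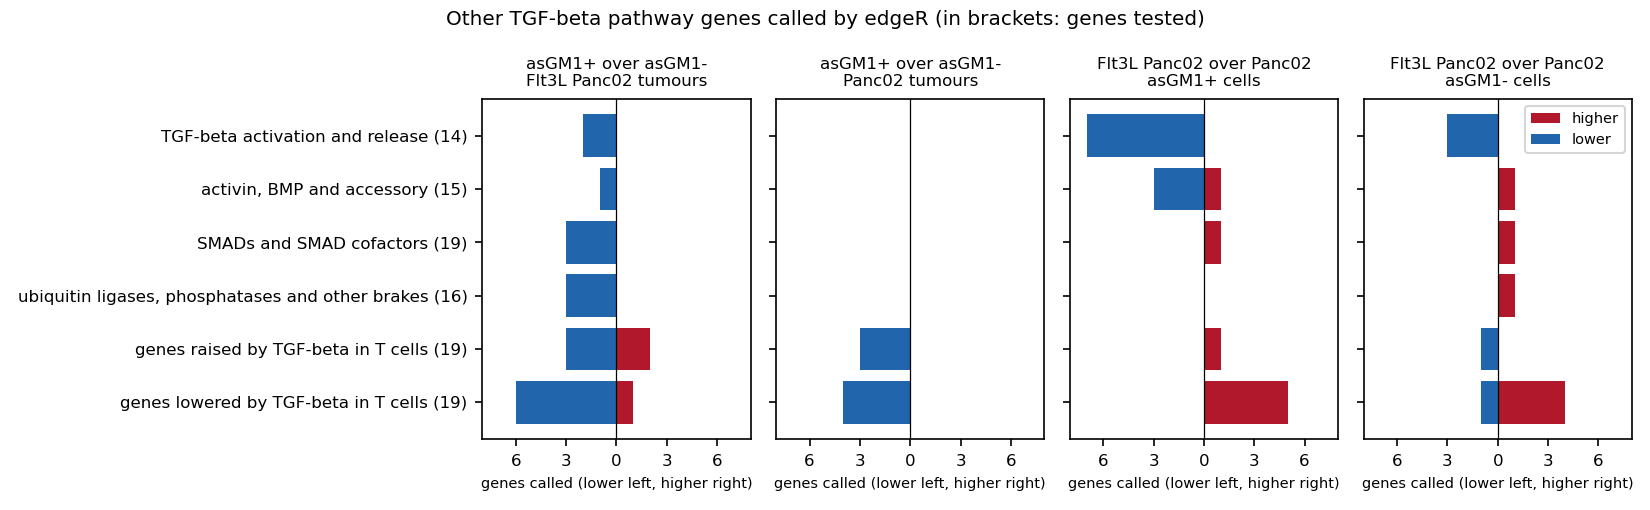
Number of genes called lower (bars to the left of 0) and higher (bars to the right) by edgeR in 6 lists, for 4 comparisons. The lists hold other TGF-beta pathway components and genes that TGF-beta raises or lowers in T cells. The number of genes tested in each list is in brackets. Between the gates of Flt3L Panc02 tumours 3 of 16 brakes and 3 of 19 SMADs and cofactors were lower, while the activation and release genes were lower mainly between tumour types.

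Among 16 ubiquitin ligases, phosphatases and other brakes on the pathway, 3 were lower in asGM1+ than asGM1- cells of Flt3L Panc02 tumours, 0 were higher and 13 were not called. Ldlrad4, which binds SMADs and limits their phosphorylation, averaged 26.1 ± 4.32 CPM in asGM1+ and 49.2 ± 6.91 CPM in asGM1- cells (SD, n = 3 each), with a log2 fold change of -0.92 ± 0.15 (SE, edgeR adjusted p = 0.00437). Its call held in all 15 alternative fits. Pmepa1, a TGF-beta target whose product also sequesters SMADs, was at -0.52 ± 0.13 (0.0327), and Nedd4l, a ubiquitin ligase that targets activated SMADs, at -1.22 ± 0.32 (0.0377). Among 19 SMADs and cofactors, 3 were lower and 0 higher. These were the acetyltransferase Crebbp at -0.60 ± 0.11 (0.00914), the corepressor Ncor1 at -0.45 ± 0.12 (0.0337) and Smad1, a SMAD of the bone morphogenetic protein branch, at -0.96 ± 0.25 (0.0388). The calls of Pmepa1, Nedd4l, Ncor1 and Smad1 were each lost without asGM1- replicate 2 (edgeR adjusted p 0.0771, 0.123, 0.105 and 0.133), asGM1+ replicate 2 (0.104, 0.0647, 0.0644 and 0.0814) or asGM1+ replicate 3 (0.0887, 0.127, 0.0953 and 0.105) of these tumours. Crebbp kept its call when any 1 library was left out. In Panc02 tumours, none of the 16 brakes or the 19 SMADs and cofactors was called between the gates by edgeR. Plasmacytoid dendritic cell genes moved with the gate: 11 of 15 were lower in asGM1+ cells of Flt3L Panc02 tumours and 9 of 15 in those of Panc02 tumours. Their part in these results was not tested.

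The lists of genes that TGF-beta raises or lowers in T cells held members that moved between the gates in both tumour types. Of the 19 raised genes, 3 were lower and 2 higher in asGM1+ cells of Flt3L Panc02 tumours, and 3 were lower and 0 higher in those of Panc02 tumours. Itgae, which encodes CD103, averaged 26.6 ± 0.876 CPM in asGM1+ and 100.2 ± 28.5 CPM in asGM1- cells of Flt3L Panc02 tumours, and 36.2 ± 14.8 CPM in asGM1+ and 157.1 ± 64.8 CPM in asGM1- cells of Panc02 tumours (SD, n = 3 each). The Itgae call in Panc02 tumours (edgeR adjusted p = 0.0115) was lost without asGM1+ replicate 2 (0.0546). Foxp3, the regulatory T cell factor and also a marker of CD4 cells, was lower in asGM1+ cells by log2 fold changes of -1.41 ± 0.29 in Flt3L Panc02 and -2.96 ± 0.31 in Panc02 tumours. The Flt3L Panc02 value lost its call without asGM1- replicate 2 (0.0605), asGM1+ replicate 1 (0.051) or asGM1+ replicate 3 (0.0523). Id3, an inhibitor of E-protein factors, was at -1.58 ± 0.31 in Flt3L Panc02 tumours, while Itga1, the collagen-binding integrin CD49a, was higher at 1.17 ± 0.21. Cd4, which is in neither list, was lower in asGM1+ cells at -2.56 ± 0.18 in Flt3L Panc02 and -1.31 ± 0.17 in Panc02 tumours. Foxp3 and Cd4 parted between tumour types in asGM1- cells. There Flt3L Panc02 over Panc02 tumours gave -1.22 ± 0.29 for Foxp3 and 1.89 ± 0.18 for Cd4, both called by edgeR. That Foxp3 call was lost in 8 of 15 alternative fits.

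Of the 19 genes that TGF-beta lowers, 6 were lower and 1 higher in asGM1+ cells of Flt3L Panc02 tumours, and 4 were lower and 0 higher in those of Panc02 tumours. S1pr1, the receptor for tissue exit, averaged 16.0 ± 3.45 CPM in asGM1+ and 92.1 ± 22.2 CPM in asGM1- cells of Flt3L Panc02 tumours, and 5.39 ± 0.830 CPM in asGM1+ and 35.5 ± 5.41 CPM in asGM1- cells of Panc02 tumours (SD, n = 3 each). Klf2, the factor that drives S1pr1, was at -2.10 ± 0.28 and -1.75 ± 0.28 in Flt3L Panc02 and Panc02 tumours, and the Panc02 call was lost without asGM1+ replicate 2 (edgeR adjusted p = 0.0566). The gene that was higher was Tbx21, the effector factor T-bet, at 0.78 ± 0.13 in Flt3L Panc02 tumours (0.00395). Genes of other T cells moved with the gate too. Of 12 genes typical of gamma delta and innate-like T cells, 8 were lower and 0 higher in asGM1+ cells of Flt3L Panc02 tumours, and 5 were lower and 0 higher in those of Panc02 tumours, with median log2 fold changes of -2.50 and -3.32. Of 11 CD4 and regulatory T cell genes, Foxp3 among them, 4 were lower and 1 higher in Flt3L Panc02 tumours, and 3 were lower and 0 higher in Panc02 tumours. The sum of these 11 genes was higher in asGM1+ cells of Flt3L Panc02 tumours, at 2621 to 3194 CPM against 1890 to 2379 CPM in asGM1- libraries. In Panc02 tumours it was 2380 to 2728 CPM in asGM1+ and 2699 to 3543 CPM in asGM1- libraries, which overlap. The part of these other T cell genes in the values of both lists was not tested. Between tumour types, 5 genes of the lowered list were higher in asGM1+ cells and 0 lower, with S1pr1 at 1.57 ± 0.22, Klf2 at 1.39 ± 0.27 and Ccr7, a lymph node homing receptor, at 1.32 ± 0.21. The S1pr1 and Ccr7 calls were each lost in 1 of 15 alternative fits, and in 0 of those that left out 1 library. The Klf2 call was lost without replicate 1 (0.0559) or 2 (0.0667) of the Panc02 asGM1+ libraries or replicate 2 (0.0729) or 3 (0.0605) of the Flt3L Panc02 asGM1+ libraries. T cell identity genes moved with this comparison, with 5 of 14 higher and 0 lower in asGM1+ cells and a median log2 fold change of 0.62, and their part in it was not tested. In asGM1- cells, 4 genes of the lowered list were higher and 1 was lower in Flt3L Panc02 tumours, and 0 of the 14 identity genes were called.

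Among 14 tested genes that store or release TGF-beta, 7 were lower and 0 higher in Flt3L Panc02 than in Panc02 tumours in asGM1+ cells, and 3 were lower and 0 higher in asGM1- cells, with medians of -1.79 and -0.92 on the log2 scale, beside -0.03 and 0.002 over all genes. Fn1, the matrix protein fibronectin, averaged 32.9 ± 7.81 CPM in Flt3L Panc02 and 255.1 ± 139.6 CPM in Panc02 tumours in asGM1+ cells (SD, n = 3 each), with a log2 fold change of -2.95 ± 0.42 (SE, edgeR adjusted p = 0.00579). Ltbp3, which anchors latent TGF-beta in the matrix, was at -1.89 ± 0.37 in asGM1+ cells (0.0175) and -1.79 ± 0.37 in asGM1- cells (0.0275). The Fn1 call in asGM1+ cells was lost in 1 of 15 alternative fits, and in 0 of those that left out 1 library. In asGM1+ cells the Ltbp3 call was lost without replicate 1 or 2 of Panc02 or replicate 2 or 3 of Flt3L Panc02 tumours, with edgeR adjusted p up to 0.0815. In asGM1- cells it was lost without any 1 library other than Flt3L Panc02 replicate 3, with adjusted p up to 0.128. Tgfb2, the remaining ligand, was at 0 in all 3 asGM1+ libraries of Flt3L Panc02 tumours, against a mean of 0.157 CPM in asGM1- libraries, where 3 sequenced fragments correspond to 0.0803 CPM. Krt8 and 4 genes each of the fibroblast and macrophage lists were also lower in Flt3L Panc02 than in Panc02 tumours in asGM1+ cells. The sums of both lists overlapped between tumour types there. Dcn, at -3.17 ± 0.65 in asGM1+ cells (edgeR adjusted p = 0.0200), belongs to both the fibroblast list and the list of genes that store or release TGF-beta. Its call there was lost in 6 of 15 alternative fits, 4 of them with 1 library left out. The part of other cells' transcripts in the values of the genes that store or release TGF-beta was not tested. Bambi, a decoy receptor that dampens TGF-beta signals, moved the other way. It averaged 13.7 ± 3.41 CPM in Flt3L Panc02 and 5.99 ± 1.35 CPM in Panc02 tumours in asGM1+ cells, and 15.0 ± 1.85 CPM in Flt3L Panc02 and 7.30 ± 1.53 CPM in Panc02 tumours in asGM1- cells (SD, n = 3 each). The log2 fold changes were 1.19 ± 0.24 in asGM1+ (0.0175) and 1.03 ± 0.24 in asGM1- cells (0.0377). The Bambi call in asGM1+ cells was lost without the same 4 libraries as that of Ltbp3 (edgeR adjusted p up to 0.0771), and the call in asGM1- cells without any 1 library other than Flt3L Panc02 replicate 1 (up to 0.146).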

How the data were processed

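RNA of CD8+ T cells was extracted with TRIzol, and the library kits named are TruSeq (mRNA) and SMARTer (low input), per the labels' protocols, which do not state strand. HISAT2, StringTie and the build mm39 are named in the submitters' processing notes. Versions, and which annotation was used, are not given in the sources. The authors deposited estimated counts per gene (expected counts, whole numbers) in 1 table, with no normalization found. Small values step by about 2.71 counts (2.67 to 2.75 equally well), so a total corresponds to 36407014 to 37969227 fragments. Columns were matched to samples by description, and 1542 rows carried no symbol.

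Counts were analysed with edgeR 4.0.16 (R 4.3.3; TMM factors, filterByExpr, group means over 12 libraries, quasi-likelihood test, Benjamini-Hochberg over 20411 genes, called under an adjusted p of 0.05). Scripts were tested on simulated data. Alternatives were DESeq2 1.42.0, its size factors, limma-voom (limma 3.58.1), no filter and a stricter filter, the compared libraries alone, counts divided by fragment worth, a replicate block and each library left out. Same-numbered asGM1+ and asGM1- libraries of Panc02 tumours correlated in their deviations from the group means (0.326, 0.310 and 0.268 over 10342 genes), so there the numbers were taken to pair samples. This pairing comes from the data, not the labels. The 9 genes and all lists were chosen with earlier results of these data known. Other pathway components and genes that TGF-beta raises or lowers were named if called, up to 4 per list and comparison by p. Text examples were taken from these. Promoter sequences are from RefSeq (GRCm38.p6). Totals were alike, and the number of libraries limits the precision.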

Additional observations from a re-analysis of the deposited data

How the results depend on the processing

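Of 927 refits of the 9 genes, 849 kept their direction and side of the threshold, 53 changed sign, 18 passed the threshold where the reported fit did not and 7 lost a call. The 7 all concern Tgfb3 in asGM1+ cells and are given with it. Comparisons below are named as Panc02 gates, Flt3L Panc02 gates, mean gate effect, tumour types in asGM1- or asGM1+ cells, and difference between gate effects, and the causes were not tested. Leaving out both Panc02 libraries numbered 1, and combining the block with leaving out Flt3L Panc02 asGM1- replicate 1 (the low library), were chosen after seeing the data. In Panc02 gates, where the numbers were taken to pair samples, the replicate block gave 248 calls over all genes and 0 among the 9.

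Calls among the 9 genes appeared in Flt3L Panc02 gates with the stricter filter (1, beside 12.8% of all genes), DESeq2 (2, 15.8%), limma-voom (2, 13.7%), the compared libraries alone (1, 5.81%), the replicate block (2, 10.3%) and the block without the low library (2, 13.4%). Whether the numbers pair samples in Flt3L Panc02 tumours was not settled by the check used. Same-number correlations were 0.092, 0.509 and -0.059, and different-number ones ran from -0.424 to 0.242. Block values were adjusted p 0.00286 for Smad3 and 0.0213 for Tgfbr1. For the mean gate effect, DESeq2, limma-voom, the block and the block without the low library called 1 each (Smad3, adjusted p 0.00176 with the block, which called 7.85% of all genes). Tumour types in asGM1- cells gave 1 with DESeq2 and 1 with limma-voom, and in asGM1+ cells 0 with no filter and 0 with the compared libraries alone. The difference between gate effects gave 1 with the block without the low library (Tgfbr1, -1.45, adjusted p 0.0424). Leaving out 1 library gave 0 to 1 calls for the mean gate effect and 0 to 1 for tumour types in asGM1+ cells.

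Over all genes, calls in Panc02 gates (182) were 598 with DESeq2, 831 with limma-voom, 118 with the compared libraries alone, 107 without both Panc02 libraries numbered 1, 403 with the block without the low library, and 94 to 226 leaving out 1 library. Flt3L Panc02 gates (1754) gave 3215 with DESeq2, 2805 with limma-voom, 1094 with the compared libraries alone, 2104 with the block, 2743 with the block without the low library, and 768 to 1942. The mean gate effect (1263) gave 2342 with DESeq2, 2528 with limma-voom, 1602 with the block, 2168 with the block without the low library, and 809 to 1589. Tumour types in asGM1- cells (756) gave 390 with no filter, 2207 with DESeq2, 3536 with limma-voom, 481 without both Panc02 libraries numbered 1, and 94 to 959. Tumour types in asGM1+ cells (1276) gave 691 with no filter, 2979 with DESeq2, 3120 with limma-voom, 1 with the compared libraries alone, 402 without both Panc02 libraries numbered 1, and 215 to 1737. The difference between gate effects (75) gave 40 with no filter, 137 with the stricter filter, 862 with DESeq2, 786 with limma-voom, 204 with the block, 27 without both Panc02 libraries numbered 1, 391 with the block without the low library, and 1 to 257.

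Uncalled log2 fold changes changed sign as follows. With the stricter filter, Skil was at -0.0071 in Flt3L Panc02 gates and Smad3 at -0.021 between tumour types in asGM1+ cells. With limma-voom, Tgfbr3 was at 0.30 between tumour types in asGM1+ cells. With the block, Ski was at 0.014 in Flt3L Panc02 gates and Smad7 at 0.0052 for the difference between gate effects. With the block without the low library, Tgfbr2 and Skil were at -0.071 and -0.16 in Flt3L Panc02 gates, Ski and Skil at -0.078 and -0.028 for the mean gate effect, and Tgfbr2 at -0.16 for the difference. Without both Panc02 libraries numbered 1, Tgfb1 and Smad7 were at 0.19 and 0.058 in Panc02 gates and Tgfbr3 at 0.026 between tumour types in asGM1+ cells.

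Leaving out 1 library at a time, Panc02 gate values ran from -0.31 to 0.16 for Tgfb1, -0.079 to 1.20 for Tgfb3, -0.025 to 0.46 for Tgfbr1, -0.34 to 0.090 for Tgfbr3, -0.28 to 0.046 for Smad7 and -0.036 to 0.29 for Ski. Flt3L Panc02 gate values ran from -0.16 to 0.12 for Tgfb3, -0.0013 to 0.37 for Tgfbr2, -0.67 to 0.067 for Smad7, -0.30 to 0.16 for Ski and -0.13 to 0.20 for Skil. The mean gate effect ran from -0.056 to 0.58 for Tgfb3, -0.085 to 0.15 for Ski and -0.012 to 0.15 for Skil. Between tumour types, Tgfbr2 ran from -0.37 to 0.0013 in asGM1- cells and -0.14 to 0.041 in asGM1+ cells, where Tgfbr3 ran from -0.34 to 0.091, Smad3 from -0.22 to 0.37 and Ski from -0.0089 to 0.28. The difference between gate effects ran from -1.23 to 0.046 for Tgfb3, -0.084 to 0.29 for Tgfbr2, -0.54 to 0.20 for Smad7, -0.44 to 0.024 for Ski and -0.24 to 0.10 for Skil.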
